A study of Mus musculus with 6 samples.

Results

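Pericytes and smooth muscle cells (SMCs), the mural cells that wrap blood vessels, were picked out of single-nucleus RNA sequencing (snRNAseq) of mouse tibial periosteum by the unique molecular identifiers (UMIs, counted transcripts) of 5 genes. A nucleus was kept when its UMIs of Myh11, Myocd, Ryr2, Rgs5 and Lmod1 summed to 4 or more, when it held no UMI of Ptprc (immune cells) or Pecam1 (endothelial cells), and when Ttn, Neb, Ckm and Acta1, genes of muscle fibres, made up under 1% of its UMIs. Of the 8073 nuclei that passed the limits on quality, 169 met this rule, and they are called pericyte and SMC nuclei. Because measured counts chose them, the levels of these genes are descriptions with no test.

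The study compared the periosteum of uninjured tibias, in 2 libraries, with the periosteum and hematoma collected after an open, non-stabilized tibial fracture, in 2 libraries at day 3 and 1 library each at day 5 and day 7. All came from 12-week-old C57BL6 mice (C57BL/6ScNj in the study's methods), males and females mixed, with no transgene. Per those methods, fractured mice also received anaesthesia and analgesia (ketamine, medetomidine, atipamezole and buprenorphine). The effect of these drugs cannot be told apart from that of the fracture. Each library is a pool, of tibias from 4 mice when uninjured and from 4 to 9 mice when fractured, and nuclei were sorted on a DNA dye. A p-value below therefore takes pooled libraries as the replicates, with the spread of each gene moderated by that of all genes. With 1 library, day 5 and day 7 cannot show a spread.

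Mural cells sit on the outside of the endothelium. SMCs, on arteries and veins, contract through smooth muscle myosin and actin, under the control of calcium channels and of the transcription factors SRF and myocardin. Pericytes cover capillaries, hold less contractile protein, share a basement membrane with the endothelium, and depend on PDGF and Notch signals. After bone is broken, new vessels grow into the callus, and mural cells are also studied as a possible source of stromal cells.

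The 5 genes of the rule lie on the mm10 genome at chr16:14194535-14291372 (Myh11, the smooth muscle myosin heavy chain), chr11:65176561-65269989 (Myocd, myocardin), chr13:11553102-12106945 (Ryr2, a calcium release channel), chr1:169655501-169695813 (Rgs5, a regulator of G-protein signalling and a common pericyte marker) and chr1:135324807-135368065 (Lmod1, a smooth muscle actin nucleator). SRF binds a short A and T rich element, the CArG box, written CC, then 6 bases that are A or T, then GG, which reads the same pattern on both strands. The 250 bases before the start of 4 genes are shown from RefSeq on GRCm38.p6, 5′ to 3′, with a CArG box in capitals: Acta2 and Dmd, which stood higher in SMC-leaning nuclei, and Lama2 and Rgs5 from the pericyte-leaning side.
Acta2: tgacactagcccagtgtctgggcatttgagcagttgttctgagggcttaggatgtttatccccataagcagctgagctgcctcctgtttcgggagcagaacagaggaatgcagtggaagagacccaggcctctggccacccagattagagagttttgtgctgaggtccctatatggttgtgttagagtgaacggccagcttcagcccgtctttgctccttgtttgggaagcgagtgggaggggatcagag
Dmd: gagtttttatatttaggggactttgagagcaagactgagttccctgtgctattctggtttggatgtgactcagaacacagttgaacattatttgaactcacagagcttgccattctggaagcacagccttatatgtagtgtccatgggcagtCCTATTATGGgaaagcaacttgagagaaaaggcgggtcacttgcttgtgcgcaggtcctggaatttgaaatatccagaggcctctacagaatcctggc
Lama2: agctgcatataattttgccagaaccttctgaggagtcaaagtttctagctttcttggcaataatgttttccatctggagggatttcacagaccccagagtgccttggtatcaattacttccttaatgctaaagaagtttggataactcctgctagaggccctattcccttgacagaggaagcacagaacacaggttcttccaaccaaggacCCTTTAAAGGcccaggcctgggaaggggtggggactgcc
Rgs5: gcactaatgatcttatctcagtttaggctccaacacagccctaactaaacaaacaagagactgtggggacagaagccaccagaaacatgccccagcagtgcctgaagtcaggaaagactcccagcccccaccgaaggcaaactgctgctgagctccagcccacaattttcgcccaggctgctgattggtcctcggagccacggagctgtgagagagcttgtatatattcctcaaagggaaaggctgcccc

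These windows are at chr19:34255374-34255623 (Acta2, minus strand), chrX:82948620-82948869 (Dmd, plus strand, 1 of its 2 starts in the table), chr10:27616943-27617192 (Lama2, minus strand) and chr1:169655251-169655500 (Rgs5, plus strand). The box starts at -98 for Dmd and -39 for Lama2, counted from the gene's start. A run with a C or G among the 6 central bases was not counted, so the absence of a match in the Acta2 and Rgs5 windows says only that these letters are not there.

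Of the 169 nuclei the uninjured libraries gave 48 and 59, the day 3 libraries 3 and 7, day 5 gave 45 and day 7 gave 7, and these held 151137, 318059, 11461, 59498, 222814 and 12421 UMIs in that order. Levels are given as CPM, the UMIs of a gene summed over the nuclei of a library and scaled to a total of 1000000. A count of 0 thus allows up to 19.8, 9.43, 262, 50.4, 13.5 and 242 CPM in that order, taking 3 counts as the limit, so the second uninjured library and day 5 carry the most precise values, and day 3 replicate 1 and day 7 the least. No nucleus was marked as a doublet by Scrublet, which marked 50 of the 8073, and 0 of the 18 barcodes that recur between libraries belonged to the 169.

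Some of these nuclei go against the label. In day 3 replicate 1, 1 nucleus carried 8349 of the 11564 UMIs counted over all listed genes. It met the rule on 4 UMIs of Ryr2 alone and held 106 UMIs of Runx2, 97 of Tnc, 12 of Alpl and 7 of Ibsp, genes of the osteoblast line. In all, 13 of the 169 nuclei held 4 or more UMIs of osteoblast or chondrocyte markers, 1 and 2 in the day 3 libraries and 10 at day 5, and some results at these days are also given without them. This limit is not scaled to depth, and not all of the 13 go against the label. In day 3 replicate 2, 1 of them held 43 UMIs of Myh11, 44 of Acta2 and 36 of Notch3. It held 11 UMIs of the skeletal markers among 16670.

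Markers of other cell types were low for some types and not for others. Among endothelial genes, Cdh5 and Tie1 were at 0 in every library, and the 10 genes of the list summed to between 0 and 565 CPM, against 443 to 4020 CPM in the other nuclei. Itgam was the 1 of 10 immune genes at 0, and that list summed to between 0 and 785 CPM, against 124 to 4025, the sums being closest in day 3 replicate 1 (785 and 888 CPM). The 10 fibroblast markers summed to more than in the other nuclei at day 5 (2204 against 1683 CPM) and day 7 (1127 against 1080 CPM), and to less in the other libraries. The adipocyte list reached 886 CPM at day 7, on 11 UMIs, against 66.1 CPM. It was also higher in day 3 replicate 2 (235 against 155) and day 5 (197 against 90.4), near equal in uninjured replicate 2 (550 against 549) and lower in the rest. The tendon list was higher in both uninjured libraries (106 against 50.2 and 186 against 103) and lower in all injured ones. In day 3 replicate 1 the Schwann (436 against 333) and osteoclast lists (262 against 101) were higher, and in all other libraries lower. The myofibre list stood at 18334 CPM against 19812 in uninjured replicate 1, of which 2742 of 2771 UMIs were of Dmd, the dystrophin gene. In the cardiac muscle list, which matters because Myocd and Ryr2 are also heart genes, 5 of 7 were at 0 and the sum was at most 13.5 CPM. The osteoblast list reached 11343 CPM in day 3 replicate 1 and 1427 CPM at day 5, and the chondrocyte list 1059 CPM at day 5.

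The rule counted more Myh11 than any other gene. Over the 169 nuclei there were 2585 UMIs of Myh11, 900 of Ryr2, 527 of Myocd, 522 of Lmod1 and 417 of Rgs5, and 19 nuclei met the rule on a single gene, Rgs5 alone in 13, Myh11 alone in 3 and Ryr2 alone in 3. Both Myh11 and Rgs5 were found in 42 nuclei, Rgs5 without Myh11 in 17 and Myh11 without Rgs5 in 103. At the limit, 17 nuclei held exactly 4 UMIs of the rule genes and 19 nuclei that were otherwise alike held 3 and stayed outside. Notch3, a receptor of mural cells that the rule did not use, stood at 685 CPM just inside and 472 CPM just outside, at 1430 CPM in nuclei with 8 or more of these UMIs and at 60.2 CPM in nuclei with none. Acta2, smooth muscle actin, stood at 130 CPM just inside and 337 CPM just outside against 1849 CPM with 8 or more. Runx2 ran the other way, at 2426 CPM just inside, 1364 CPM just outside and 103 CPM with 8 or more.

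Among the rule genes themselves, Myh11 stood at 5134 and 4867 CPM in uninjured, 436 and 1630.3 CPM on day 3, 646 CPM on day 5 and 1208 CPM on day 7. Rgs5 stood at 318 and 289 CPM in uninjured, 0 and 555 CPM on day 3, 996 CPM on day 5 and 1771 CPM on day 7, and Ryr2 at 2481 and 1418 CPM in uninjured, 698 and 387 CPM on day 3, 188 CPM on day 5 and 80.5 CPM on day 7. Uninjured libraries held the most Myh11 and Ryr2, and days 5 and 7 the most Rgs5. In the other nuclei Myh11 stood between 2.03 and 42.7 CPM.

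Measured against the other nuclei of the same libraries, 7904 over all 6, 15 of 20 contractile genes tested and 15 of 22 genes of calcium and potassium handling were higher in these nuclei, as were 8 of 20 vasoactive receptors, with 3 lower. With the rule genes taken out, 407 of the 10184 genes tested were called higher and 811 lower by edgeR (4.00% and 7.96%, or 12.0% in either direction), which the choice of nuclei by correlated genes makes a description and no test. The highest were Agtr1b, an angiotensin II receptor (log2 fold change 7.02 ± 0.57 (SE)), Olfr78 and Olfr558, odorant receptors also known from vascular smooth muscle (6.65 and 5.72), Slc38a11, an amino acid carrier (6.46), Npy1r, a neuropeptide Y receptor (6.45), Mrvi1, a substrate of the cGMP kinase (6.18), Trpc6, a cation channel (5.94), Dgkb, a diacylglycerol kinase (5.80), Ppp1r14a, an inhibitor of myosin phosphatase (5.72), and Itga8, an integrin subunit (5.67). Trpc6 stood at 146 and 211 CPM in uninjured, 0 and 622 CPM on day 3, 907 CPM on day 5 and 483 CPM on day 7, against 0.407 to 16.4 CPM in the other nuclei. In the contractile list Des, desmin, which muscle fibres also make, was lower. Among the genes called lower with 0 UMIs in these nuclei of the 3 libraries tested were Myot, Art1, Trim63 and Clcn1 of muscle fibres, Trp63, a transcription factor of epithelium, Fgd5, an endothelial gene, and Gm28653, Gm13490, Cmah and Gpm6a. In the libraries not tested Gm28653 had 2, 3 and 2 UMIs in day 3 replicates 1 and 2 and day 7. The count rests on 3 libraries with at least 10 such nuclei, and it was 308 without uninjured replicate 2 and 2088 without day 5.

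By time point, the share of pericyte and SMC nuclei among the nuclei passing the limits was 48 of 644 (7.45%, exact 95% interval 5.55 to 9.76) and 59 of 1182 (4.99%, 3.82 to 6.39) in uninjured periosteum. Both day 3 libraries were near the same value, with 3 of 753 (0.398%, 0.0822 to 1.16) and 7 of 1720 (0.407%, 0.164 to 0.837). Day 5 had 45 of 2423 (1.86%, 1.36 to 2.48), while day 7 had 7 of 1351 (0.518%, 0.209 to 1.06). The means were 6.22% ± 1.74 (SD, n = 2) in uninjured and 0.403% ± 0.00606 (SD, n = 2) at day 3, both day 3 libraries lay below both uninjured ones, and an exact permutation of 2 against 2 libraries cannot reach p under 0.05. Day 5 and day 7 also lay below both uninjured libraries, with day 5 above the other injured ones. The share counts nuclei that reach 4 UMIs of the rule genes, so it also depends on the level of these genes. In kept nuclei the median sum of these UMIs was 18 and 36 in uninjured and 7 and 22 at day 3. It was 8 at day 5 and 8 at day 7. How much of the lower shares comes from lower levels of these genes was not tested. Median depth of the nuclei passing the limits ran from 1283 UMIs in uninjured replicate 1 to 4241 in day 3 replicate 2, and the injured samples included hematoma, which adds blood and immune nuclei to the denominator. With immune and muscle fibre nuclei left out of the denominator the day 3 share minus the uninjured one was -7.07 points, and it was -5.82 points with all nuclei. The shares over that denominator were 9.96 and 6.78% in uninjured and 1.02 and 1.59% at day 3, so the point difference was larger but the ratio smaller than with all nuclei. The day 5 share was then 2.63% (1.92 to 3.50), an interval that overlaps that of day 3 replicate 2 (0.642 to 3.25). In nuclei thinned to 1000 UMIs the day 3 difference was -7.97 points, and the shares were 1.46% (0.985 to 2.07) at day 5 and 1.19% (0.573 to 2.18) at day 7, with overlapping intervals.

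**Figure D1:**
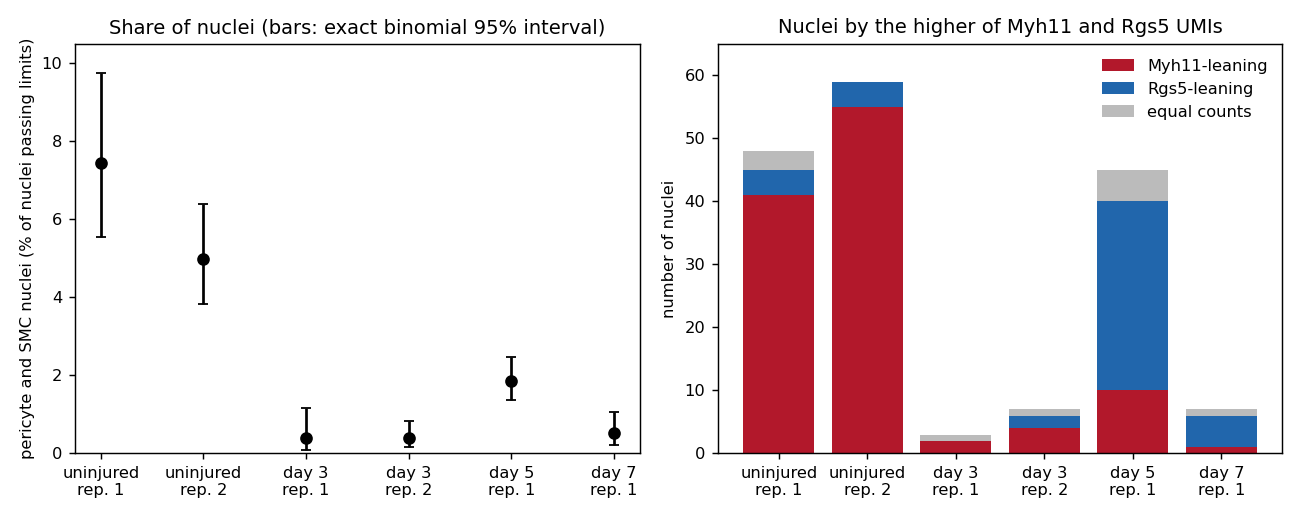
Left, share of pericyte and SMC nuclei among nuclei passing the limits (percent) in each library, with exact binomial 95% intervals that cover counting error only; the uninjured libraries stand at 7.45% and 4.99% and the injured ones at 0.398% to 1.86%. Right, number of these nuclei with more Myh11 than Rgs5 UMIs, more Rgs5 than Myh11, or equal counts, where Rgs5-leaning nuclei are the larger class at days 5 and 7.

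Within these nuclei, those with more Myh11 than Rgs5 UMIs are called Myh11-leaning, the side of SMCs, and those with more Rgs5 are called Rgs5-leaning, the side of pericytes. There were 113 Myh11-leaning nuclei, 45 Rgs5-leaning nuclei and 11 with equal counts. In the uninjured periosteum 41 of 48 and 55 of 59 were Myh11-leaning, and 4 and 4 were Rgs5-leaning. At day 3 the numbers were 2 of 3 and 4 of 7 Myh11-leaning, with 0 and 2 Rgs5-leaning. Day 5 held 10 Myh11-leaning and 30 Rgs5-leaning nuclei of 45 and day 7 held 1 and 5 of 7. The Myh11-leaning share was 89.3% ± 5.52 (SD, n = 2) in uninjured, 61.9% ± 6.73 (SD, n = 2) at day 3, 22.2% (exact 95% interval 11.2 to 37.1) at day 5 and 14.3% (0.361 to 57.9) at day 7. Both uninjured libraries lay above all 4 injured ones. This order did not hold for day 3 replicate 1 with at least 2 rule genes, with at least 6 UMIs of the rule genes, without skeletal-marker nuclei or in thinned nuclei, where 2 of its 2 nuclei (100%) were Myh11-leaning.

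At day 5 there were fewer Myh11-rich nuclei, and more nuclei carrying Rgs5 beside little or no Myh11. The median Myh11 count per nucleus was 8 and 22 UMIs in the uninjured libraries and 2 at day 5, with highest counts of 127, 89 and 20. The median Rgs5 count was 0 and 0 in uninjured and 4 at day 5, with highest counts of 27, 40 and 24. The highest Rgs5 counts thus overlapped between the groups, while nuclei above 20 UMIs of Myh11 were found in uninjured and day 3 replicate 2 libraries and not at days 5 and 7. At day 5 Rgs5-leaning and Myh11-leaning nuclei had median depths of 4034 and 4673.5 UMIs. Of the 10 day 5 nuclei with skeletal markers 7 were Rgs5-leaning, and without all 13 such nuclei the day 5 share of Myh11-leaning nuclei minus the uninjured one was -63.6 points, and it was -67.1 points with them.

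**Figure D2:**
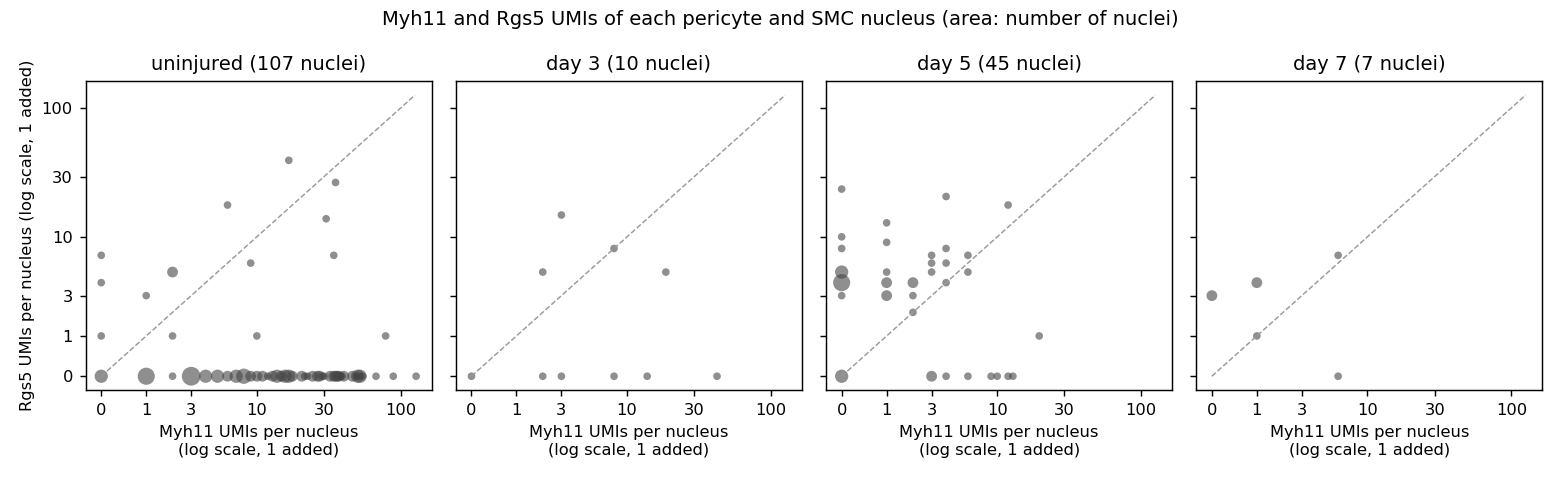
Myh11 UMIs (horizontal) against Rgs5 UMIs (vertical) of each pericyte and SMC nucleus, on log scales with 1 added, by time point; the area of a point is the number of nuclei at that pair of counts and the dashed line marks equal counts. Uninjured nuclei lie mostly along the horizontal axis, up to 127 Myh11 UMIs, and day 5 nuclei mostly at or above the line, with at most 20 Myh11 UMIs.

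The Myh11-leaning and Rgs5-leaning nuclei of the same library differed most in Col4a5, Col4a6 and Adamts5, higher in Myh11-leaning nuclei, and in Steap4 and Cd36, higher in Rgs5-leaning nuclei. With the library as a block, edgeR's quasi-likelihood test called 48 of 1645 genes (2.92%), 34 higher in Myh11-leaning nuclei (2.07% of those tested) and 14 in Rgs5-leaning nuclei (0.851%). Myh11 and Rgs5 chose the classes and were left out with the other rule genes. Genes correlated with either lean the same way through that choice, so the calls and p-values between these classes are descriptions. The libraries with at least 2 nuclei of each class were uninjured replicates 1 and 2, day 3 replicate 2 and day 5, the order in which values follow, and Rgs5-leaning sums of 4, 4 and 2 nuclei in the first 3 make day 5, with 30, the library that carries most of this comparison. Without day 5 the count was 3, and without uninjured replicate 1 or 2 it was 20 or 17. Without skeletal-marker nuclei it was 32 of 1015 genes tested. With no library block edgeR called 0 genes, with 90 at an unadjusted p under 0.05, and with the block DESeq2 called 39. TMM scaling set the median gene at 0.31 on the log2 scale in favour of Myh11-leaning nuclei, so fold changes are to be read against that. Here edgeR's p-values lie near those of a normal curve (Acta2, 2.76 ± 0.67 (SE), unadjusted p = 3.59e-05). A gene's own spread between the libraries therefore had little weight in them.

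Col4a5 and Col4a6, paired chains of a type IV collagen found around smooth muscle, led the Myh11-leaning side. Col4a5 stood at 739, 499.9, 86.8 and 204 CPM in Myh11-leaning nuclei and had no UMI in Rgs5-leaning nuclei of any library. Col4a6 stood at 327, 204, 304 and 148 CPM and likewise had none. With all libraries pooled, a count of 0 over the 45 Rgs5-leaning nuclei allows 17.9 CPM. Against that, Col4a5 was at least 27.6-fold and Col4a6 at least 13.2-fold higher. This pool sets mostly uninjured Myh11-leaning nuclei against mostly day 5 Rgs5-leaning ones, so class and day are mixed in these folds. By library a count of 0 in Rgs5-leaning nuclei allows 566, 214, 506 and 22.4 CPM. Col4a5 lay above that in both uninjured libraries and at day 5, and Col4a6 only at day 5. With the library as a block, edgeR's adjusted p was 0.000277 and 0.00363.

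Kcnma1, the large-conductance calcium-activated potassium channel that relaxes smooth muscle, stood at 3219, 1901, 955 and 1464 CPM in Myh11-leaning and 0, 0, 169 and 179 CPM in Rgs5-leaning nuclei, a log2 fold change of 4.24 ± 0.76 (SE) with edgeR's adjusted p = 2.54e-05. Sorbs2, an adaptor of actin fibres, stood at 8024, 5157, 1606 and 2095 against 943, 500.4, 0 and 171 CPM (log2 fold change 3.86). Sox6, a transcription factor best known from cartilage, stood at 3255, 3065, 608 and 1502 against 755, 357, 0 and 29.8 CPM (4.04). For each of these genes the lowest Myh11-leaning library lay above the highest Rgs5-leaning one, except that Sox6 overlapped at 608 CPM in day 3 replicate 2 against 755 CPM in uninjured replicate 1. Itga8, Adamts5 (a proteoglycan-cleaving protease), Adarb1 (an RNA-editing enzyme), Ntrk3 (a neurotrophin receptor) and Prdm16 (a transcription factor of arterial SMCs) completed the 10 largest, with log2 fold changes from 3.50 to 4.73.

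On the Rgs5-leaning side the largest was Steap4, a metalloreductase that marks pericytes, at 377, 429, 1855 and 96.9 CPM in Rgs5-leaning and 0, 39.5, 21.7 and 18.5 CPM in Myh11-leaning nuclei (log2 fold change -4.10 ± 0.92 (SE), edgeR adjusted p = 0.00206). Meg3, a maternally expressed long non-coding RNA, stood at 1132, 929, 2529.9 and 5851 against 0, 178, 521 and 779 CPM (-2.86). Lama2, a laminin chain, stood at 3396, 357, 2361 and 1178 against 121, 59.2, 521 and 278 CPM (-2.49). In each of the 4 libraries all of these were higher in the Rgs5-leaning nuclei, which the rule for naming genes required. The 377 CPM of Steap4 in uninjured replicate 1 lay below the 566 CPM that a count of 0 allows there. Across libraries the classes did not overlap for Steap4 and Meg3, and overlapped for Lama2. Cd36 (a fatty acid carrier), Adap2, Adgrf5 (an adhesion G-protein coupled receptor), Mgp (matrix Gla protein), Plxdc2 and Ntm (neurotrimin) had log2 fold changes from -3.26 to -2.77. Cd36 and Adgrf5 are also expressed by endothelium and stood in the other nuclei at 112 to 547 and 17.9 to 343 CPM, and the part of such RNA in these values was not tested.

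**Figure D3:**
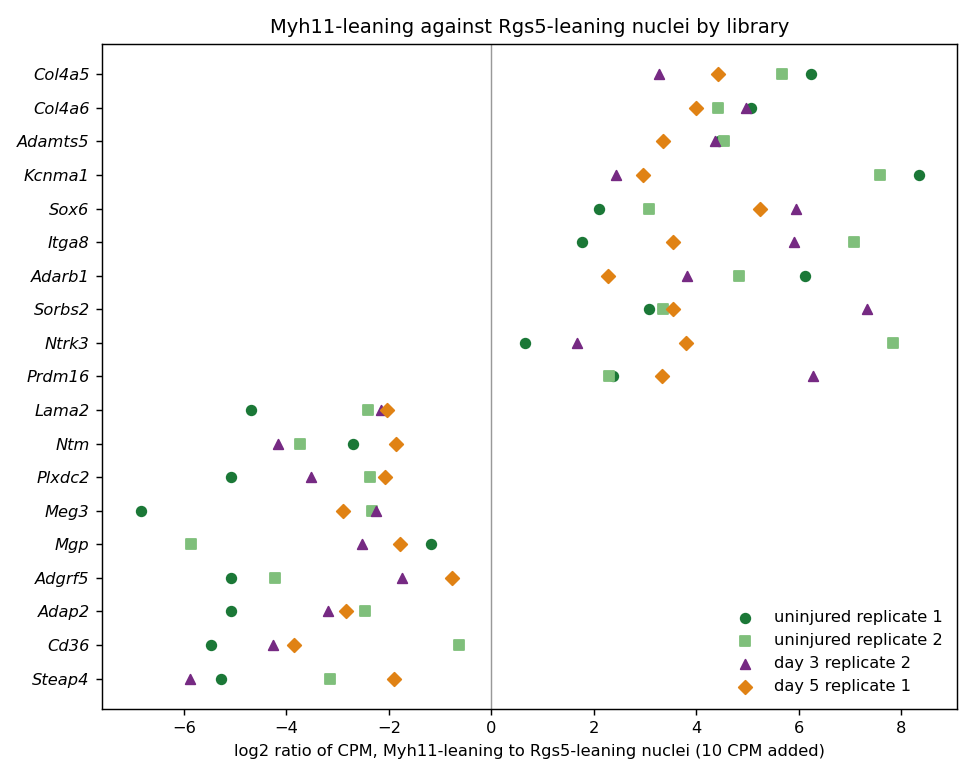
Log2 ratio of CPM between Myh11-leaning and Rgs5-leaning nuclei (10 CPM added to both) for the 10 genes with the largest change in favour of Myh11-leaning nuclei and 9 genes in favour of Rgs5-leaning nuclei, 1 point for each of the 4 libraries. All points of the upper 10 genes lie right of 0 and all points of the lower 9 lie left of it, which the rule for naming genes required, and the libraries spread most for Ntrk3.

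Of the contractile apparatus list, 16 of 20 genes had the counts to be tested and 4 were called, all higher in Myh11-leaning nuclei: Acta2, Tagln (transgelin), Synpo2 (synaptopodin-2) and Dstn (destrin). The list's median was 1.74 on the log2 scale beside 0.31 over all genes tested, and 16 of 16 lay above 0. Myh11, a gene of the same programme, chose the classes, so this direction is no independent result. Acta2 stood at 2309.7, 2342, 1259 and 816 CPM against 377, 929, 0 and 119 CPM, with a log2 fold change of 2.76 ± 0.67 (SE) and edgeR's adjusted p = 0.00454. In each library Acta2 was higher in Myh11-leaning nuclei, and the Rgs5-leaning nuclei of uninjured replicate 2 lay above the Myh11-leaning nuclei of day 5. Cald1, caldesmon, stood at 1983, 1881, 2517 and 2558 against 1886, 1429.7, 3711 and 2989 CPM, lower in the Myh11-leaning nuclei of 2 libraries and higher in the other two (log2 fold change 0.30 ± 0.56 (SE), edgeR adjusted p = 0.892).

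Of 19 tested genes for calcium and potassium handling, Kcnma1, Kcnab1 (a potassium channel subunit) and Slc8a1 (the sodium-calcium exchanger) were called higher in Myh11-leaning nuclei and Ano1, a calcium-activated chloride channel, higher in Rgs5-leaning nuclei. Ano1 stood at 566, 1001, 843 and 626 against 14.2, 168, 217 and 185 CPM, higher on the Rgs5-leaning side in all 4 libraries. The main voltage-gated calcium channel of smooth muscle, Cacna1c, stood at 3475, 3341, 4036 and 2577 against 4716, 1644, 2361 and 2624 CPM and did not pass. Of 10 tested pericyte genes, Steap4 was the 1 called, with a median of -0.57 beside 0.31 over all genes. Mcam (log2 fold change 0.44), Cspg4 (0.30) and Gucy1a1 (0.14) lay above 0, towards Myh11-leaning nuclei, and the other tested members below 0. Pdgfrb, the PDGF receptor of pericytes, had 377, 786, 2361 and 462 CPM in Rgs5-leaning and 99.5, 276, 825 and 185 in Myh11-leaning nuclei, higher in each library, with a log2 fold change of -1.15 ± 0.62 (SE) and edgeR's adjusted p = 0.438. Abcc9, a potassium channel subunit of pericytes, stood at 189, 143, 3542 and 738 CPM in Rgs5-leaning and 71.1, 224, 412 and 55.6 CPM in Myh11-leaning nuclei, higher on the Rgs5-leaning side in 3 of 4 libraries, and did not pass. Kcnj8, its partner and a stricter pericyte marker, had at most 134 CPM in the sums of all nuclei.

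Of 10 tested basement membrane genes, Col4a5 and Col4a6 were higher in Myh11-leaning and Lama2 in Rgs5-leaning nuclei, with a median of 1.40. Of 13 tested matrix genes edgeR called 0 (2 at an unadjusted p under 0.05), with a median of 0.06. The mural transcription factor list gave Prdm16 alone of 12. The Notch (7 tested), TGF-beta and BMP (8), PDGF, angiopoietin and VEGF (5), vasoactive receptor (5), inflammatory (6) and mitotic (3) lists gave no call, with 0, 1, 1, 2, 0 and 0 genes at an unadjusted p under 0.05. Integrins and adhesion gave Itga8 and Adgrf5 on opposite sides of 14 tested, and Sox6 was the 1 called of 3 chondrogenic and osteogenic genes. Counts of immediate-early factors were too low to test.

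In the 250 bases before the start, a CArG box was found for 1 of the 28 genes higher in Myh11-leaning nuclei that have a promoter in the table (3.57%, Dmd) and for 2 of 11 higher in Rgs5-leaning nuclei (Lama2 and Meg3), against 32 of 1278 genes tested (2.50%) and 439 of all 27025 promoters (1.62%). Of the contractile list 3 of 17 held one, Myl9, Vcl and Myl6, none of them called, and of the rule genes 0 of 3. These are matches of letters, and nothing about the factor follows from them.

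At day 3 the question was how mural nuclei changed in the first days after fracture, and no gene passed the test. EdgeR's quasi-likelihood test of 2254 genes between the 2 uninjured and the 2 day 3 libraries called 0 (0.00%), with 221 at an unadjusted p under 0.05, and DESeq2 called 13. The day 3 sums rest on 3 and 7 nuclei. Without day 3 replicate 1, of whose UMIs most came from the nucleus with osteoblast genes, 172 genes were called, and without day 3 replicate 2 it was 41, both with a lone day 3 library assumed to vary like the uninjured ones. Without all 13 nuclei of skeletal markers 21 were called, 13 higher and 8 lower.

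Contractile genes nonetheless stood low at day 3 in value. Of 17 tested, 16 had a log2 fold change below 0, with a median of -1.51 beside -0.10 over all genes, and 5 had an unadjusted p under 0.05. Acta2 stood at 2243 and 2279 CPM in uninjured, 349 and 1059 CPM on day 3, 274 CPM on day 5 and 644 CPM on day 7, a day 3 log2 fold change of -1.74 ± 0.81 (SE) with edgeR's adjusted p = 0.515. Tagln stood at 1039 and 619 CPM in uninjured, 0 and 168 CPM on day 3, 76.3 CPM on day 5 and 80.5 CPM on day 7, where the day 3 replicate 1 value allows up to 262 CPM. Tpm1, a tropomyosin, stood at 2097 and 2081 CPM in uninjured, 436 and 840.4 CPM on day 3, 219.9 CPM on day 5 and 483 CPM on day 7. For these genes every injured library lay below both uninjured ones. The nucleus with osteoblast genes, with 8349 UMIs, held 0 UMIs of Acta2 and Tagln and so lowers their CPM in day 3 replicate 1. The other nuclei of that library held 3 and 1 UMIs of Acta2 among 1879 and 1336 UMIs. The fold changes above include the nucleus with osteoblast genes, and day 3 levels without it are not given.

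Cald1 and Mylk showed another order of libraries. Cald1 stood at 2071 and 1861 CPM in uninjured, 1571 and 2689 CPM on day 3, 2724 CPM on day 5 and 3059 CPM on day 7, with day 3 replicate 1 below and the other injured libraries above uninjured. Mylk, the myosin light chain kinase, stood at 1601 and 1389.7 CPM in uninjured, 3054 and 941 CPM on day 3, 529.6 CPM on day 5 and 1208 CPM on day 7, and 32 of its UMIs in day 3 replicate 1 came from the nucleus with osteoblast genes. Smtn, smoothelin, stood at 609 and 547 CPM in uninjured, 87.3 and 84.0 CPM on day 3, 71.8 CPM on day 5 and 0 CPM on day 7, with all injured libraries below both uninjured ones and an unadjusted p of 0.0033 at day 3 that did not survive adjustment (edgeR adjusted p = 0.271).

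Outside the lists, few genes came near the threshold at day 3. Pcdh7 (a protocadherin), Pde7b (a cAMP phosphodiesterase), Runx1 and Unc5c (a netrin receptor) were called both by DESeq2 and after removing skeletal-marker nuclei, out of 13 and 21 genes, and were chosen after their values were seen. Pcdh7 stood at 2858 and 1710.4 CPM in uninjured, 262 and 0 CPM on day 3, 561 CPM on day 5 and 0 CPM on day 7. Zfp385b, a zinc finger gene, and Plxdc2, a plexin-domain receptor, had the lowest unadjusted p of edgeR's test. Plxdc2 stood at 26.5 and 25.2 CPM in uninjured, 1222 and 1109 CPM on day 3, 1584 CPM on day 5 and 1127 CPM on day 7 (log2 fold change 5.27 ± 0.71 (SE), edgeR adjusted p = 0.0695), with all injured libraries above both uninjured ones. In the other nuclei Plxdc2 stood at 423 and 721 CPM in uninjured, 167 and 368 CPM on day 3, 1105 CPM on day 5 and 836 CPM on day 7, both day 3 libraries being below both uninjured ones.

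To ask whether the day 3 change differed from that of stromal cells, it was compared with the change in Pdgfra+ nuclei, which hold at least 2 UMIs of this stromal receptor. Of the 340 such nuclei in all libraries, only those of the uninjured (15 and 105) and day 3 libraries (13 and 67) entered. The interaction of class and day was called by edgeR for 40 of 3377 genes (1.18%), 29 (0.859%) with a higher log2 change in pericyte and SMC nuclei and 11 (0.326%) with a lower one, and for 0 genes without uninjured replicate 1 (173 at an unadjusted p under 0.05) and 6 without uninjured replicate 2. DESeq2 called 24 and, without skeletal-marker nuclei, edgeR called 22. Igfbp5, an insulin-like growth factor binding protein, had 126 and 616 CPM in uninjured pericyte and SMC nuclei and 262 and 2605 at day 3, and 67.7 and 586 CPM in uninjured Pdgfra+ nuclei and 14.4 and 11.03 at day 3. The difference of the changes was 6.64 ± 1.35 (SE) on the log2 scale (edgeR adjusted p = 0.00424), with Pdgfra+ nuclei lower at day 3 and the other class overlapping. Angpt1, the angiopoietin that mural cells give to endothelium, went from 351 and 475 to 0 and 84.0 CPM in pericyte and SMC nuclei and from 90.2 and 223 to 534 and 331 CPM in Pdgfra+ nuclei, a difference of -4.29 ± 1.13 (SE) (edgeR adjusted p = 0.0406). Here the uninjured and day 3 libraries did not overlap in either class and moved in opposite directions.

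By day 5, in 45 nuclei of 1 library, contractile genes stood below and matrix and mitotic genes above the uninjured periosteum. Of the 225332 UMIs of these nuclei over all listed genes, 89293 came from the 10 nuclei of skeletal markers. A gene was counted when it differed at least 2-fold from the uninjured mean (10 CPM added) and lay outside both uninjured libraries, a rule of size with no test, and 946 of 5426 genes were counted higher (17.4%) and 681 lower (12.6%). Only genes with 20 or more UMIs over the 3 libraries entered, and a gene near 0 in uninjured could do so only through day 5, so counts of higher genes in such lists are not evidence of direction. The day 5 library was also made with another gene list and, against uninjured replicate 2, another version of Cell Ranger, and these cannot be told apart from the day. Neither uninjured library shares a gene list with day 5 or day 7, and the 30406 genes common to all were used. The mix of the classes changed too, the Myh11-leaning share being 89.3% in uninjured and 22.2% at day 5. How much of the ratios over all pericyte and SMC nuclei comes from that mix was not tested.

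Of 19 measured contractile genes 15 were counted lower and 0 higher, with a median log2 ratio of -2.05 beside 0.13 over all genes. Acta2 was at 274 CPM (exact Poisson 95% interval 209 to 352) against 2261 ± 25.8 (SD, n = 2) in uninjured, a log2 ratio of -3.00. Flna, filamin A, was at 305 CPM (237 to 387) against 2174 ± 753 (SD, n = 2), a ratio of -2.79. Ryr3, a calcium release channel, was at 8.98 CPM against 410.2 and 389.9. Cald1 lay above both uninjured libraries, by 0.47.

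Lower contractile levels were also seen within Myh11-leaning nuclei and without skeletal-marker nuclei. In the 10 Myh11-leaning nuclei of day 5, 12 of 19 contractile genes were counted lower and 0 higher, with a median of -1.50 beside -0.06 over all 4232 genes, of which 36.3% were counted in either direction. Acta2 there was at 816 CPM (593 to 1095) against 2309.7 and 2342 in the uninjured Myh11-leaning nuclei, a log2 ratio of -1.50. Without the nuclei of skeletal markers 15 of 19 were counted lower, with a median of -1.60, where 30.4% of 4882 genes were counted in either direction. The Myh11-leaning nuclei were chosen by Myh11 counts, which are part of the same programme.

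**Figure D4:**
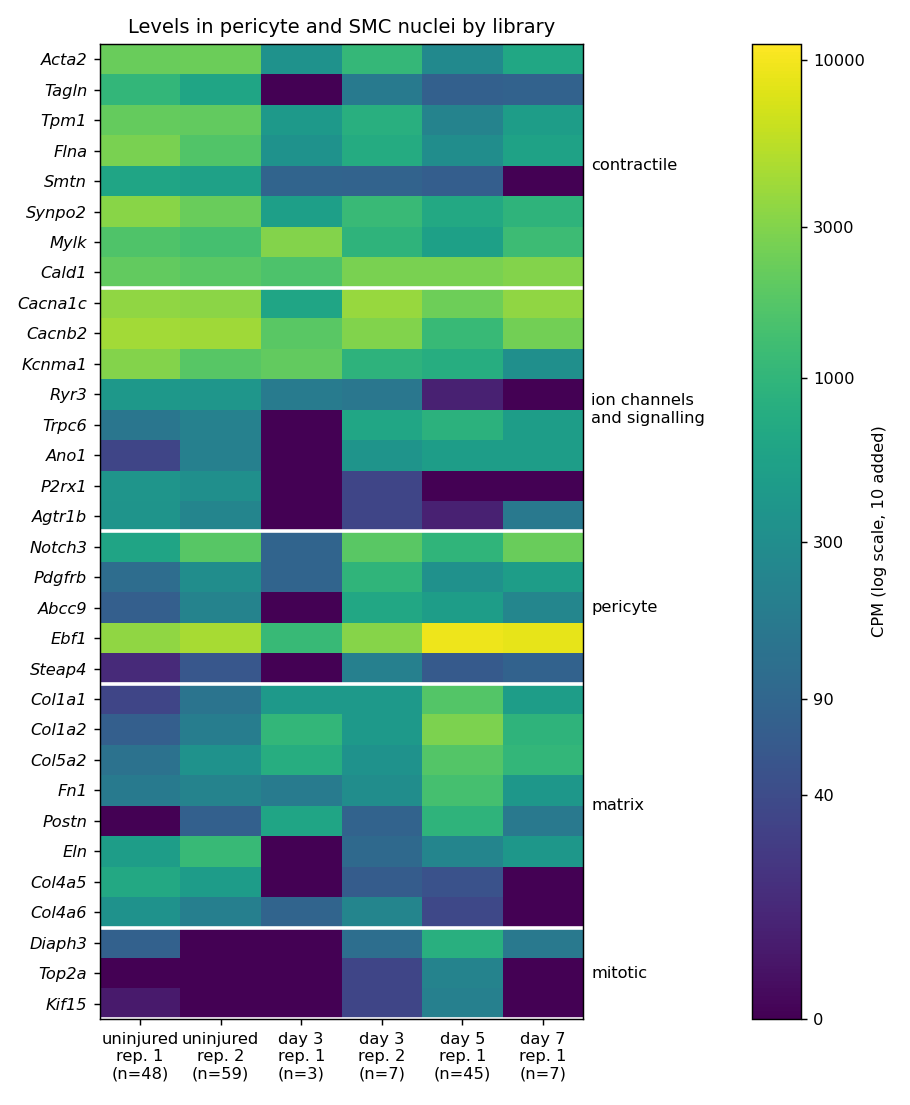
Levels (CPM, colour on a log scale with 10 added) of contractile, ion channel, pericyte, matrix and mitotic genes in the pericyte and SMC nuclei of each library, with the number of nuclei under each column. Acta2, Tagln, Tpm1, Flna and Smtn are higher in both uninjured libraries than in any injured one, while Col1a1, Col1a2 and Col5a2 are highest at day 5.

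Among matrix genes 14 of 18 were counted higher at day 5 and Eln, elastin, lower, with a median of 2.31. Col1a2, a chain of type I collagen, stood at 72.8 and 189 CPM in uninjured, 1047 and 437 CPM on day 3, 2814 CPM on day 5 and 966 CPM on day 7. Col1a1, the other chain, stood at 33.1 and 138 CPM in uninjured, 436 and 420.2 CPM on day 3, 1723 CPM on day 5 and 483 CPM on day 7. Fn1, fibronectin, stood at 172 and 220.1 CPM in uninjured, 175 and 303 CPM on day 3, 1400.3 CPM on day 5 and 403 CPM on day 7. All 4 injured libraries lay above both uninjured ones for both collagens, and day 5 was the highest. The other nuclei of the same libraries moved the same way, Col1a2 being at 149.9 and 534 CPM in uninjured, 420.0 and 1089.9 CPM on day 3, 2729 CPM on day 5 and 1337 CPM on day 7, and the 10 fibroblast markers summed to 457 and 1028 CPM in the uninjured pericyte and SMC nuclei, 175 and 218 at day 3, 2204 at day 5 and 1127 CPM at day 7. The part of free RNA or of mixed nuclei in the matrix levels was not tested. Without skeletal-marker nuclei Col1a2 at day 5 was 1232 CPM and 12 of 16 matrix genes were counted higher, and in Myh11-leaning nuclei 12 of 15 were. Of the 10 Myh11-leaning nuclei of day 5, 1 was a skeletal-marker nucleus, without which the class held 39415 in place of 53946 UMIs. It is included in the Myh11-leaning values, and without it Col1a1 was at 787 CPM and Acta2 at 1015 CPM, against 1001 and 816 CPM with it.

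**Figure D5:**
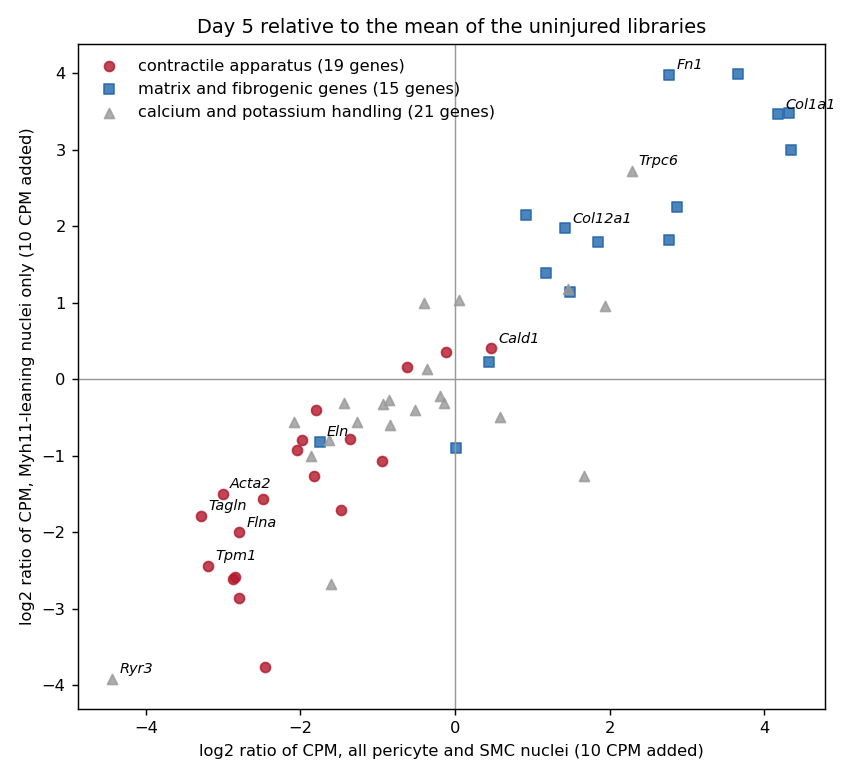
Log2 ratio of day 5 to the uninjured mean (10 CPM added) in all pericyte and SMC nuclei (horizontal) and in Myh11-leaning nuclei only (vertical), for genes of 3 lists; the 10 Myh11-leaning nuclei of day 5, of which 1 held skeletal markers, are among the 45, so the axes share data. Contractile genes lie mostly in the lower left, with Acta2 at -3.00 and -1.50, and matrix genes mostly in the upper right, with Col1a1 at 4.18 and 3.46.

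Mitotic genes were near 0 in uninjured nuclei and present at day 5. Of the 15 on the list 8 had enough UMIs to enter, and all 8 were counted higher, with a median of 3.28, beside 17.4% of all genes. Genes near 0 in uninjured could enter only through day 5, so this count is no evidence of direction. Diaph3, a formin that rises in dividing cells, stood at 79.4 and 0 CPM in uninjured, 0 and 118 CPM on day 3, 830.3 CPM on day 5 and 161 CPM on day 7. Top2a, topoisomerase II alpha, stood at 0 and 0 CPM in uninjured, 0 and 33.6 CPM on day 3, 224 CPM on day 5 and 0 CPM on day 7. Both were highest at day 5, where Top2a was at 352 CPM in Myh11-leaning and 201 CPM in Rgs5-leaning nuclei. In the other nuclei of the same libraries Top2a stood at 0.750 and 3.16 CPM in uninjured, 61.4 and 71.5 CPM on day 3, 67.5 CPM on day 5 and 28.6 CPM on day 7, so at day 5 the pericyte and SMC nuclei lay above them. Without skeletal-marker nuclei Top2a was at 259.8 CPM and Diaph3 at 972 CPM.

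Pericyte genes split at day 5, with 4 of 10 counted higher and 2 lower. Ebf1, a transcription factor of pericytes and stroma, stood at 3487 and 4458 CPM in uninjured, 1134 and 3109 CPM on day 3, 9299 CPM on day 5 and 8695 CPM on day 7, with day 5 and day 7 above both uninjured libraries and day 3 below. Notch3 stood at 602 and 1798 CPM in uninjured, 87.3 and 1849 CPM on day 3, 983 CPM on day 5 and 2254 CPM on day 7 and the injured libraries lay on both sides of the uninjured ones. Of the Notch targets, Hey2 was at 31.4 CPM against 212 and 186 in uninjured, and Heyl at 80.8 against 6.62 and 40.9. Abcc9 was high where Rgs5-leaning nuclei were, at 738 CPM there and 55.6 in the Myh11-leaning ones of day 5, against 45.8 CPM in the other nuclei. Trpc6, counted higher, stood above both uninjured libraries in Myh11-leaning nuclei too (1131 CPM against 135 and 191).

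Of 13 vasoactive receptors 6 were counted lower and 4 higher, and without skeletal-marker nuclei 6 of 10 lower and 0 higher. Agtr1b was at 8.98 CPM against 364 and 233 in uninjured, while Agtr1a, the other type 1 angiotensin receptor, was at 108 CPM (66.8 CPM without skeletal-marker nuclei) against 0 and 12.6. P2rx1, the ATP-gated channel through which sympathetic nerves contract arteries, had no UMI at day 5 or day 7 and was at least 26.0-fold lower at day 5 than the uninjured mean of 351 CPM. Ednra, the endothelin receptor of smooth muscle, stood at 390.4 and 667 CPM in uninjured, 175 and 1664 CPM on day 3, 476 CPM on day 5 and 886 CPM on day 7, without a common direction. Integrins and adhesion genes had 8 of 17 higher and 5 lower, among them Cdh2 (N-cadherin) at 646 CPM against 13.2 and 129, and Itga8 at 229 against 1866 and 1279.6.

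The remaining lists were mixed at day 5. Calcium and potassium handling had 4 of 21 higher and 7 lower, with Trpc6, Ano1 and Abcc9 among the higher ones. Mural transcription factors had 4 of 16 higher and 2 lower, Zeb2, which stood at 642 and 1978 CPM in uninjured, 3839 and 2034 CPM on day 3, 3932 CPM on day 5 and 5153 CPM on day 7, being among the former and Prdm16 among the latter. The counts were 3 higher and 1 lower of 13 for Notch, 1 and 5 of 12 for PDGF, angiopoietin and VEGF, 3 and 3 of 14 for TGF-beta and BMP, 2 and 4 of 14 for basement membrane, 2 and 1 of 6 for inflammatory signals and 0 of 3 for immediate-early factors. Of 7 chondrogenic and osteogenic genes 5 were higher and 1 lower, and without skeletal-marker nuclei 1 was higher and 1 lower of 3.

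The largest single ratios at day 5 came partly from few nuclei or from genes that moved in all nuclei. Col11a1, a cartilage collagen, was at 2047 CPM against 0 and 9.43 in uninjured, and at 178 CPM without skeletal-marker nuclei. Ibsp, bone sialoprotein, was at 435 CPM and 14.8 CPM without them. Robo1, an axon guidance receptor, was at 808 CPM and 690.4 CPM without them, against 0 and 9.43 in uninjured. Pakap, counted under 2 identifiers, was named at both day 5 and day 7, but in the other nuclei its identifiers lay between 0.401 and 4.04 CPM in the 3 libraries with the shortest gene list and between 59.8 and 365 CPM in the rest, so the gene list and the day cannot be told apart. B830012L14Rik, in the Meg3 region, was at 516 CPM against 0 and 3.14.

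The 5 lowest ratios at day 5 belonged to Fgf14, Ntrk3, P2rx1, Gm48099 and Nalcn. Fgf14 and Ntrk3 were also called higher in Myh11-leaning than in Rgs5-leaning nuclei (log2 fold change 3.71 and 3.62). P2rx1 (5.27) and Gm48099 (-1.96) were not called there. Fgf14, an intracellular regulator of sodium channels, stood at 2455 and 990.4 CPM in uninjured, 262 and 0 CPM on day 3, 0 CPM on day 5 and 80.5 CPM on day 7 and was at least 128-fold lower at day 5 than the uninjured mean. Ntrk3 stood at 1727 and 2163 CPM in uninjured, 349 and 16.8 CPM on day 3, 31.4 CPM on day 5 and 242 CPM on day 7, with every injured library below both uninjured ones. Nalcn, a sodium leak channel, had no UMI in any injured library and was at least 17.3-fold lower at day 5. Gm48099 also varied in the other nuclei, from 8.76 CPM at day 5 to 1351 CPM in uninjured replicate 1.

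Day 7 rests on 7 nuclei and 12421 UMIs, so that 1 UMI is 80.5 CPM. By the same rule of size 2302 of 4064 genes were counted (56.6%), 658 higher (16.2%) and 1644 lower (40.5%). A gene expected at 1 UMI is often at 0 at this depth, and 724 were counted without uninjured replicate 2 and 1672 without uninjured replicate 1. Among contractile genes 11 of 19 were lower and 0 higher, with a median of -1.74 beside -0.28 over all genes. The named genes on the higher side were Meg3, Stard13, Plxdc2, Pakap and Taco1. Meg3 and Plxdc2 were also called higher in Rgs5-leaning nuclei, the larger class at day 7, while Stard13 was not called between the classes. Meg3 stood at 39.7 and 211 CPM in uninjured, 0 and 689 CPM on day 3, 3972 CPM on day 5 and 4831 CPM on day 7, with days 5 and 7 above all other libraries, and in the other nuclei between 96.0 and 1152 CPM, days 5 and 7 again being the highest. Stard13 and Taco1 also differed between libraries in the other nuclei, Stard13 from 18.4 to 393 CPM and Taco1 from 106 to 3672 CPM. Pcdh7, Zbtb16, Dtna, 9530026P05Rik and Mertk had no UMI at day 7 and were at least 9.46-, 5.73-, 4.91-, 3.95- and 3.62-fold lower than the uninjured means.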

How the data were processed

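Single nuclei of 6 pooled mouse libraries were profiled with the 10x Genomics 3′ v3.1 kit. Per the methods and the submitters' processing notes, the authors aligned reads to mm10 with Cell Ranger, version 6.0.0 or 7.1.0 by library, counting intronic and exonic reads, and deposited filtered matrices of raw UMI counts per gene and barcode. One label names a human reference, which the mouse gene identifiers contradict. Gene positions are from GENCODE M21 and upstream sequences from RefSeq (GRCm38.p6).

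Limits of 200 to 5000 genes per barcode, of 2% for mitochondrial UMIs and of 1.5% for UMIs of ribosomal proteins left 8073 of 13551 barcodes. Scrublet (scanpy 1.11.5, 6% expected doublets) marked 50, which were kept in the results given. The 30406 genes common to all libraries were used, and 11 genes of the rule were removed from tests but kept in library sizes. UMI counts were summed per library and class, and tested with edgeR 4.0.16 (filterByExpr, TMM, quasi-likelihood, Benjamini-Hochberg adjusted p under 0.05) or, as an alternative, DESeq2 1.42.0, in R 4.3.3. The planned limit of 10 nuclei per sum left 1 library for Myh11-leaning against Rgs5-leaning nuclei, so 2 was used there. Library was a block in comparisons within libraries, since both sums come from the same droplets. Intervals are 95% exact binomial or Poisson and cover counting error only.

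Depth sets what could be found. On simulated counts with log2 changes of 3, 86.8% of changed genes were recovered for pericyte and SMC against other nuclei (9887 genes), 81.5% for Myh11-leaning against Rgs5-leaning (1850 genes), 77.9% for day 3 against uninjured (2173 genes) and 5.98% for the interaction with Pdgfra+ nuclei (3397 genes). With changes of 2 these were 66.7%, 26.3%, 10.8% and 0.00%, over 9900, 1877, 2184 and 3344 genes.

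The nuclei, the 15 gene lists and the 11 marker lists of other cell types were chosen with earlier results of these data known. Named genes are the 10 with the largest log2 fold change in each direction among called genes of at least 50 CPM in the higher class and the same direction in every library. For days 5 and 7 they are the 5 largest ratios in each direction among genes of 20 or more UMIs, and list members may be named whatever they do. Of the genes so named, 1 is not reported here. Genes lower in the first comparison had no UMI in these nuclei of the libraries tested and are given without a fold change.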

Additional observations from a re-analysis of the deposited data

Results flagged for a closer look

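The changes from uninjured to day 3 differed between pericyte and SMC nuclei and Pdgfra+ nuclei, by edgeR's test of the interaction of class and day, for 20 named genes. Each value below is the day 3 change in pericyte and SMC nuclei minus that in Pdgfra+ nuclei, on the log2 scale, as fitted. Where a class is at 0 in some libraries the fitted value depends on the prior count and is no bound.

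The 10 positive differences were 10.11 for Lrfn2, 10.05 for Nlgn1, 9.22 for Ston2, 8.79 for Slc25a21, 7.58 for Thsd4, 6.64 for Igfbp5, 6.42 for Egflam, 6.26 for Tlr4, 6.25 for Colec12 and 6.20 for Etl4. Ston2 and Slc25a21 had 9 and 11 UMIs in pericyte and SMC nuclei of day 3 replicate 1, the library in which 1 nucleus with osteoblast genes holds most UMIs. Nlgn1 rested on 2 UMIs each in 2 libraries of pericyte and SMC nuclei. Thsd4, a thrombospondin-domain protein of microfibrils, stood on more counts, at 1575 and 717 CPM in uninjured and 524 and 1126 CPM at day 3 in pericyte and SMC nuclei, and at 1534 and 103, then 0 and 1.58 CPM in Pdgfra+ nuclei.

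The 10 negative differences were -11.11 for Ctps, -10.06 for Dhrs3, -5.10 for Csgalnact1, -4.84 for Pcdh7, -4.62 for Enah, -4.58 for Dpysl3, -4.56 for Kcnq5, -4.37 for Frmd4a, -4.34 for Slc8a1 and -4.29 for Angpt1. Csgalnact1, which starts chondroitin sulphate chains, stood at 449.9 and 333 CPM in uninjured and 87.3 and 118 CPM at day 3 in pericyte and SMC nuclei, and at 203 and 348, then 2441 and 2021 CPM in Pdgfra+ nuclei.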

How the results depend on the processing

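Counts of called genes moved with the processing, while the named genes kept their direction. Against other nuclei, 407 genes were called higher and 811 lower. With no library block these were 111 and 94, and against Pdgfra+ nuclei 173 and 121. For pericyte and SMC against other nuclei (1218 called) the count was 1851 with no filter on low counts, 205 with no library block, 294 against Pdgfra+ nuclei in place of all others and 2062 with all 6 libraries, and leaving out 1 library gave 308 to 2088. For Myh11-leaning against Rgs5-leaning nuclei (48 called) it was 6 with no filter, 0 with no library block, 25 with a gap of at least 3 UMIs between Myh11 and Rgs5, and 3 to 35 leaving out 1 library, the lowest without day 5.

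For day 3 against uninjured (0 called) it was 13 with DESeq2, 2 with RLE size factors, 47 with no filter, 13 with at least 2 rule genes per nucleus, 12 with at least 6 rule UMIs, 21 without nuclei of skeletal markers, 25 in Myh11-leaning and 2 in Rgs5-leaning nuclei only, and 0 to 172 leaving out 1 library, the highest without day 3 replicate 1. For the interaction with Pdgfra+ nuclei (40 called) it was 24 with DESeq2, 24 with no filter, 21 with at least 2 rule genes, 24 with at least 6 rule UMIs, 22 without nuclei of skeletal markers and 0 to 43 leaving out 1 library, the lowest without uninjured replicate 1. At day 7 leaving out 1 uninjured library gave 724 to 1672 genes. No paired analysis was possible because the labels number no replicates across groups, so day 3 and uninjured libraries were not paired.

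The share of pericyte and SMC nuclei minus uninjured, in points, was -7.07 at day 3 and -7.69 at day 7 with immune and myofibre nuclei out of the denominator (against -5.82 and -5.70), and -7.97 at day 3 and -6.82 at day 5 in nuclei thinned to 1000 UMIs (against -5.82 and -4.37). The share of Myh11-leaning nuclei minus uninjured at day 3 (-27.4) was -12.2 with at least 2 rule genes, -12.5 with at least 6 rule UMIs, -37.4 with a gap of 3 UMIs and -19.3 without nuclei of skeletal markers, and at day 7 (-75.0) it was -68.3 with that gap. The limits on skeletal nuclei, on 6 libraries and on days 5 and 7 were chosen after seeing the data. Over the alternatives run, named genes kept their direction, and their call was kept 238 times and lost 7 times against other nuclei, 186 and 65 times between the leaning classes, and 108 and 105 times for the interaction. Days 5 and 7 have 1 library each, so no spread was measured there.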
